A study of Mus musculus with 6 samples.

Results

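The insulin-like growth factor (IGF) system was read in adult mouse neural stem and progenitor cultures through 10 genes: the ligands Igf1 and Igf2, the receptors Igf1r and Igf2r, the receptor substrates Irs1 and Irs2, and the binding proteins Igfbp2, Igfbp3, Igfbp4 and Igfbp5. The genes were chosen by name, and each was read from the probe set that the platform annotation pairs with that gene alone. All 10 were found, on 11 of the 34760 probe sets of the array. Irs1 has 2 such probe sets, and the brighter is its main value. Each array gave a log2 RMA value per probe set, RMA being a method that removes background and equalises the intensity distributions of arrays.

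The Sirt1 inactive cultures carried NestinCre;Sirt1lox/lox and are described in the labels as lacking active SIRT1 (3 arrays). The control cultures carried Sirt1lox/lox without Cre and express active SIRT1 (3 arrays). Both came from 129SV mice of 8 weeks, were grown with EGF and bFGF in B27-supplemented medium and were harvested while dividing at passage 2. NestinCre is a Cre recombinase driven by Nestin, a gene of neural stem and progenitor cells, and the controls carry no Cre, so genotype and Cre cannot be told apart. The titles call the samples biological replicates. The number of mice per sample is not stated in them.

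IGF1 and IGF2 are secreted ligands that activate the tyrosine kinase receptor encoded by Igf1r. IRS1 and IRS2 carry that signal to PI3K, AKT and mTOR, and AKT keeps FOXO transcription factors out of the nucleus. The receptor encoded by Igf2r takes up and degrades IGF2, and the binding proteins hold the ligands outside the cell and can release or withhold them. In brain tissue IGF signalling is known to promote the division, survival and differentiation of neural progenitors. B27 supplement contains insulin, which shares this pathway. SIRT1 is an NAD-dependent deacetylase.

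Sirt1 itself (probe set 10369738) was 8.26, 8.33 and 8.25 on the Sirt1 inactive arrays, against 8.73, 8.78 and 8.55 on the control arrays. The groups did not overlap, and the log2 difference, Sirt1 inactive minus control, was -0.41 (SE 0.08); it did not pass over all probe sets (limma, adjusted p = 0.959). The labels do not state which part of Sirt1 is floxed, and a probe set that reads sequence outside the deleted part would not measure its loss. The stem cell markers Sox2 and Nes were between 11.55 and 11.78 on all 6 arrays, above the median level of 7.90 of the tested probe sets. Control replicate 3 stood apart: its median absolute distance to the mean of the other arrays was 0.117, against 0.059 to 0.089 for the other 5. The difference without it is given for each of the 10 genes.

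No IGF system gene passed the test between the genotypes. The test was a linear model per probe set (limma) with Benjamini-Hochberg adjustment over 22961 probe sets, of which 0 passed at 0.05 (0% called), while 830 (3.61%) had an unadjusted p under 0.05. Of the 10 genes, 0 had an unadjusted p under 0.05, and 0 had groups without overlap, against 9.33% of all tested probe sets. Without control replicate 3, Igf1r and Igfbp5 had an unadjusted p under 0.05, 2 of the 10, against 2.81% of all tested probe sets. With the replicate number as a block and without number 3, 4 of the 10 did, against 8.59% of all tested probe sets. These were Igf1, Igf1r, Igfbp4 and Igfbp5, all lower in Sirt1 inactive, and 0 passed after adjustment. That fit rests on numbers 1 and 2 alone. Leaving out any other single array gave 0 of the 10. Control replicate 3 held the lowest value for 7 of the 10 genes, so counts without it depend on these same values and carry no test.

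Differences of 5 genes were above 0 and of 5 below 0. Their median was -0.02, as was the median over the 19937 genes measured, of which 61% lay below 0. This split moved with single control arrays. Without control replicate 3, 2 were above 0 and 8 below, with a median of -0.07, against 54.6% of all genes below 0. Without control replicate 1, 7 were above 0 and 3 below, with a median of 0.11, against 61.5% of all genes below 0. The differences ran from -0.28 for Igfbp4 to 0.12 for Igf2r and Igfbp2, that is, from 0.824 to 1.09 times control. The 95% intervals of Igf1r, Irs2, Igfbp2, Igfbp3 and Igf2 reached at most 0.33 from 0 on the log2 scale, and that of Igfbp5 reached from -1.09 to 0.99.

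**Figure D1:**
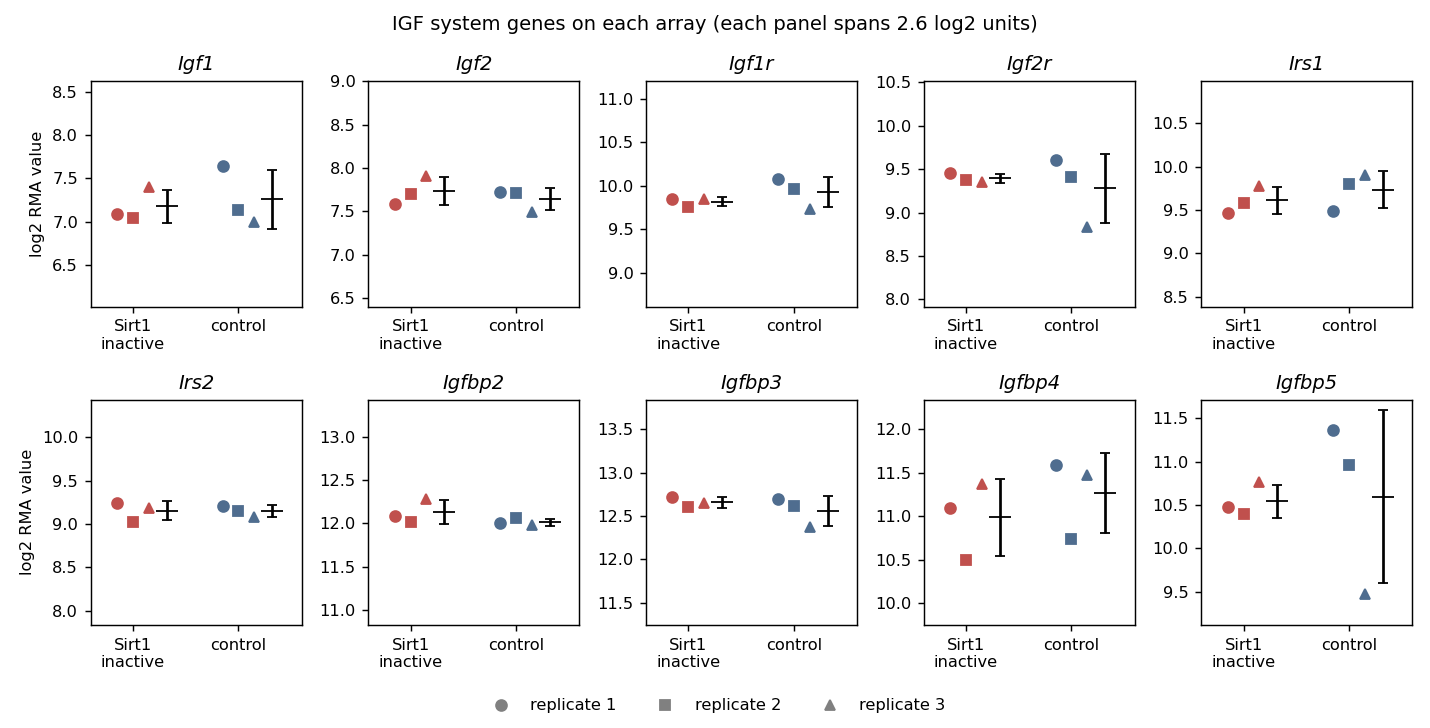
Log2 RMA value (vertical axis) of each gene on each array, Sirt1 inactive at left and control at right; the marker shape gives the replicate number, and the bar is mean ± SD of 3 arrays. The groups overlap in all 10 panels, and control replicate 3 (triangle) lies lowest for 7 genes, furthest for Igfbp5.

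Promoter sequences are shown for the 4 genes to which the results below return: Igfbp5 and Igf2r, whose values were low in control replicate 3, Igfbp4, whose same-numbered cultures moved together, and Irs1, whose probe sets differ. Each window runs from 250 bases before to 50 after the annotated start (RefSeq, GRCm38.p6), 5′ to 3′ on the gene's strand. Capitals mark matches to the motifs searched on both strands: the core promoter element TATAAA, the GC box letters GGGCGG, the upstream element CCAAT, the FOXO motif GTAAACA and the E-box CACGTG. Of the matches in the 14 windows of the 10 genes, 0 overlapped.
Igfbp5, chr1:72874816-72875115, minus strand: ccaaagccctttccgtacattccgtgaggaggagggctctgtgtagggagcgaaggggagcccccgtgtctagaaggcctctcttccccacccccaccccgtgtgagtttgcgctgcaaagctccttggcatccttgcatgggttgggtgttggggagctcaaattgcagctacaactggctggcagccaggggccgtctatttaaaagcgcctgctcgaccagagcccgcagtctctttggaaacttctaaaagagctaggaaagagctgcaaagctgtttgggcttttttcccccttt
Igf2r, chr17:12769657-12769956, minus strand: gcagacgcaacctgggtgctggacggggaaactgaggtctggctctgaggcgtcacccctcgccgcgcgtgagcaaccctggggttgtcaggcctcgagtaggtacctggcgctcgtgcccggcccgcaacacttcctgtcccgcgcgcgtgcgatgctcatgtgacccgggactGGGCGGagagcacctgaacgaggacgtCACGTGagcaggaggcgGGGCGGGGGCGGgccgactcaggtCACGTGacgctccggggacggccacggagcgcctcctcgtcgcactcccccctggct
Igfbp4, chr11:99040994-99041293, plus strand: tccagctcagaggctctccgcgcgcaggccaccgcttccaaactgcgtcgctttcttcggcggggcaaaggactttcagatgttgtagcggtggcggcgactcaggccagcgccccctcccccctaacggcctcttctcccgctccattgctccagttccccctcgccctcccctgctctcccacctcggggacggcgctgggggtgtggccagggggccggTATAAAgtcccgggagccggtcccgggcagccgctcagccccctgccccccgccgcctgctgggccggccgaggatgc
Irs1, chr1:82291390-82291689, minus strand: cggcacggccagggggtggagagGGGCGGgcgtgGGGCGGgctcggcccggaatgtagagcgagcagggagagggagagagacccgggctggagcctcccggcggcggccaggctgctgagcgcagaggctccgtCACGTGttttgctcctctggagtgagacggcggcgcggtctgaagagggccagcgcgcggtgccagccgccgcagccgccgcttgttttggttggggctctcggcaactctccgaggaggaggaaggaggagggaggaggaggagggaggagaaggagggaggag

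The Igfbp4 window held TATAAA with its first base 28 bases before the start, the single match of this element among the 14 windows that RefSeq's table gives for the 10 genes. The same letters occur in 13.6% of the table's 32851 windows. The Igf2r window held 3 GC boxes and 2 E-boxes, and the Irs1 window 2 GC boxes and 1 E-box. GC boxes occurred in 7 of the 14 windows, from 6 of the 10 genes, against 35.7% of all windows. E-boxes occurred in 4 of the 14, from Igf2r, Igfbp2, Irs1 and Irs2, against 7.15% of all windows. CCAAT was found in 3 of the 14, from Igf1, Igf2 and Irs2, against 37.4% of all windows. The letters GTAAACA were in 0 of the 14 windows and in 3.65% of all windows. The windows differed in CpG dinucleotides, with 48 for Igf1r, 41 for Irs2, 37 for Igfbp3 and 34 for Igf2r, against 10 for Igfbp5, 6 for Igf1 and 2 for the first of the 4 Igf2 windows; the median of all windows was 7. The Igfbp5 and Igf2r windows shared no motif match, since the Igfbp5 window held none. These matches describe letters and do not show a bound factor.

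Among the ligands, Igf1 (probe set 10365559), which brain cells secrete as a survival and differentiation factor, was 7.09, 7.04 and 7.40 on the Sirt1 inactive arrays, against 7.65, 7.14 and 7.001 on the control arrays. Control replicate 1 was highest, and the groups overlapped. Its mean level of 7.22 over the 6 arrays was below the median level of 7.90 of the tested probe sets. The difference was -0.08 (SE 0.18, 95% interval -0.50 to 0.33; limma, adjusted p = 0.971), and it was 0.11 without control replicate 1 and -0.21 without control replicate 3. Igf2 (10569344), an imprinted growth factor that adult neural stem cells are known to use, was 7.59, 7.70 and 7.91 in Sirt1 inactive and 7.72, 7.72 and 7.49 in control. Its highest value was in Sirt1 inactive replicate 3 and its lowest in control replicate 3. The mean level of Igf2, 7.69, was also below that median level. The difference was 0.09 (SE 0.10, 95% interval -0.16 to 0.33; limma, adjusted p = 0.959), and 0.015 without control replicate 3.

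The Igf2 gene also hosts a microRNA, Mir483, whose gene has its own probe set (10569356); it was chosen after its values were seen. RefSeq's mature arms from GRCm38.p6 are shown because they identify what this probe set's gene encodes apart from the growth factor, with the seed (bases 2 to 8) in capitals.
mmu-miR-483-5p, chr7:142654968-142654989, minus strand: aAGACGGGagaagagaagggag
mmu-miR-483-3p, chr7:142654932-142654952, minus strand: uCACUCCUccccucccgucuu
The arms have different seeds. The Mir483 probe set was 8.35, 8.11 and 8.11 in Sirt1 inactive and 8.35, 8.28 and 8.49 in control. The groups overlapped through Sirt1 inactive replicate 1, and the difference was -0.19 (SE 0.09; limma, adjusted p = 0.959), opposite in sign to that of Igf2. The labelled material is total RNA primed for whole transcripts, so this value need not report the mature arms.

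Igf1r (10554094), the signalling receptor, was 9.84, 9.76 and 9.85 in Sirt1 inactive cultures, against 10.08, 9.97 and 9.74 in control. The 3 Sirt1 inactive values lay within 0.09 of each other, below control replicates 1 and 2 and above control replicate 3. The difference was -0.11 (SE 0.09, 95% interval -0.33 to 0.11; limma, adjusted p = 0.959). Without control replicate 3 it was -0.21 (SE 0.07), with an unadjusted p = 0.024 in limma and an adjusted p = 0.9996. That array held the lowest Igf1r value, so these p-values depend on the same values and carry no test.

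Igf2r (10447799), the clearing receptor and also the receptor that sorts lysosomal enzymes, was 9.45, 9.38 and 9.36 in Sirt1 inactive and 9.60, 9.41 and 8.83 in control. Control replicate 3 lay lowest, 0.53 below the next lowest array. The SD was 0.05 in Sirt1 inactive and 0.40 in control (n = 3 each). The difference was 0.12 (SE 0.18, 95% interval -0.31 to 0.55; limma, adjusted p = 0.962), and it was -0.11 without control replicate 3.

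Of the receptor substrates, Irs1 (10356084) was 9.47, 9.58 and 9.78 in Sirt1 inactive and 9.49, 9.80 and 9.90 in control. Within each number the Sirt1 inactive culture was lower, by 0.02, 0.21 and 0.13, but the groups overlapped. The difference was -0.12 (SE 0.13; limma, adjusted p = 0.959), and -0.035 without control replicate 3. A second Irs1 probe set (10347792) was 6.005, 5.72 and 5.93 in Sirt1 inactive, against 6.06, 6.25 and 6.30 in control. These groups did not overlap, and the difference was -0.32 (SE 0.10, 95% interval -0.55 to -0.09; limma, unadjusted p = 0.014, adjusted p = 0.959). The exact two-sided permutation test gave p = 0.1, the smallest that 3 against 3 arrays allow. Both Irs1 probe sets thus lay below 0, by unequal amounts. The second lies below 6.42, the lower quartile of the tested probe sets, and RMA values do not show whether it exceeds background.

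Irs2 (10576971), the other substrate and a gene that FOXO factors are known to induce in liver, had the smallest difference of the 10. It was 9.24, 9.03 and 9.19 in Sirt1 inactive and 9.21, 9.15 and 9.08 in control, with overlapping groups. The difference was 0.004 (SE 0.08), and its 95% interval of -0.18 to 0.18 bounds any change at this precision (limma, adjusted p = 0.997). It was -0.030 without control replicate 3.

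Among the binding proteins, Igfbp2 (10347277), made by many neural progenitors and astrocytes, was 12.09, 12.02 and 12.28 in Sirt1 inactive and 11.999, 12.06 and 11.97 in control. Sirt1 inactive replicate 3 was highest, and Sirt1 inactive replicate 2 lay within the control range. The difference was 0.12 (SE 0.08, 95% interval -0.07 to 0.31; limma, adjusted p = 0.959), 0.04 without Sirt1 inactive replicate 3 and 0.10 without control replicate 3. Igfbp3 (10384223), the main carrier of IGFs in blood, was 12.72, 12.60 and 12.65 in Sirt1 inactive and 12.70, 12.61 and 12.37 in control. It was alike on 5 arrays and lower on control replicate 3. The difference was 0.10 (SE 0.09; limma, adjusted p = 0.959), and -0.0008 without control replicate 3.

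Igfbp4 (10381096), a binding protein that inhibits IGF action until it is cleaved by the protease PAPP-A, was 11.10, 10.498 and 11.37 in Sirt1 inactive, against 11.59, 10.73 and 11.47 in control. Both cultures of number 2 were low, and in all 3 numbers the Sirt1 inactive culture was lower than its control, by 0.50, 0.23 and 0.11. The difference was -0.28, with an SE of 0.28 (limma, adjusted p = 0.959; unadjusted p = 0.36). With the replicate number as a block the difference was the same and its SE was 0.09, which gave an unadjusted p = 0.022 but an adjusted p = 0.656 in limma. It was the 1 gene of the 10 with an unadjusted p under 0.05 in that fit, against 7.58% of all tested probe sets. Of the 10 genes, Igfbp4 and Irs1 were lower in 3 of 3 same-numbered pairs and 0 were higher in 3 of 3, against 20.7% and 10.9% of all tested probe sets. The Igfbp4 difference was -0.17 without control replicate 3, and with array weights it turned to 0.11.

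Igfbp5 (10355500), a binding protein that also attaches to extracellular matrix, varied most. It was 10.47, 10.40 and 10.76 in Sirt1 inactive, against 11.36, 10.96 and 9.47 in control. Control replicates 1 and 2 lay above every Sirt1 inactive array, and control replicate 3 lay below every one. The SD was 0.19 in Sirt1 inactive and 0.998 in control (n = 3 each), and the SD pooled over genotypes exceeded that of 99.3% of the 1000 probe sets nearest in level. The difference was -0.05 (SE 0.44, 95% interval -1.09 to 0.99; limma, adjusted p = 0.994). Without control replicate 3 it was -0.62 (SE 0.15; limma, unadjusted p = 0.0061, adjusted p = 0.9996), and without control replicate 1 it was 0.33. Fitted over numbers 1 and 2 alone, with the replicate number as a block, it was -0.72 (SE 0.09, adjusted p = 0.092 in limma). Fits without control replicate 3 drop the array that ran the other way: the same-numbered differences were -0.89, -0.56 and 1.29. Their p-values depend on these same values and carry no test.

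**Figure D2:**
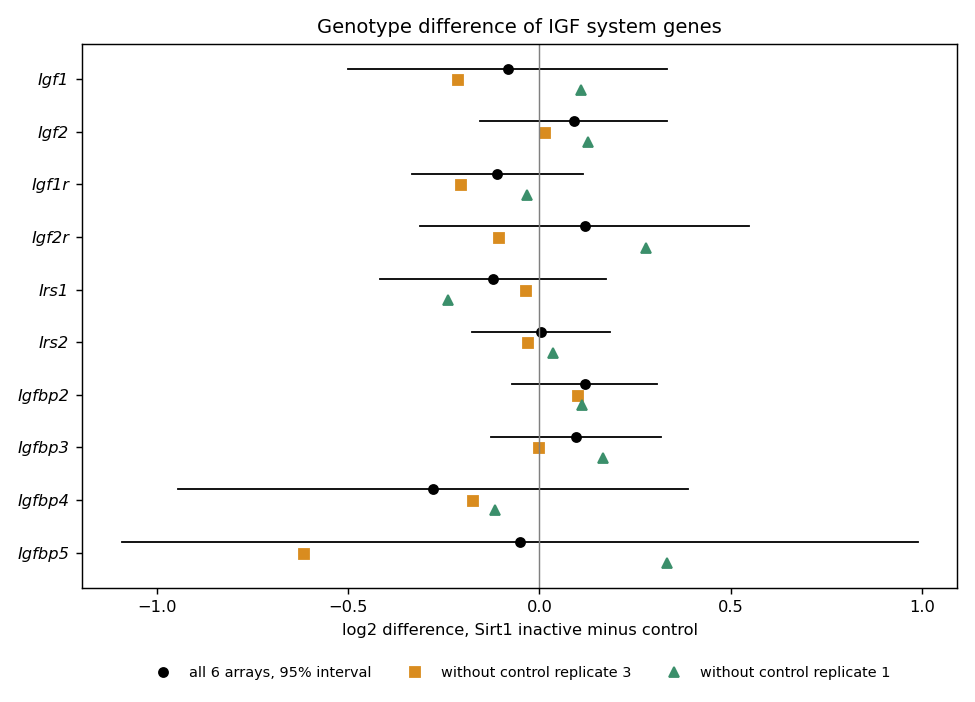
Log2 difference, Sirt1 inactive minus control (horizontal axis), for each gene: the black point and line give limma's estimate and 95% interval over 6 arrays, squares the estimate without control replicate 3 and triangles that without control replicate 1. Every interval crosses 0, and leaving out a single control moved Igfbp5 to -0.62 or 0.33.

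Control replicate 3 held the lowest of the 6 values for 7 of the 10 genes (Igf1, Igf2, Igf1r, Igf2r, Igfbp2, Igfbp3 and Igfbp5), against 17.7% of all tested probe sets. It held the highest value for 1 gene, Irs1, against 37.2% of all tested probe sets. Control replicate 1 held the highest value for 5 genes, Igf1, Igf1r, Igf2r, Igfbp4 and Igfbp5, against 17.5% of all tested probe sets. These counts were made after the values were seen, and the genes share the same arrays, so they carry no test. In these bulk samples, fewer cells of a type and less RNA per cell cannot be told apart.

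Markers of choroid plexus, the tissue that makes cerebrospinal fluid and is known to express Igf2, were low on the same array. Control replicate 3 was lowest for 5 of the 6 markers, against 17.7% of all tested probe sets. The log2 of their summed intensity was 11.63 to 12.01 in Sirt1 inactive and 10.17 to 11.77 in control. Ttr added more to these sums than any other marker. Of the 6 markers, 2 lay above the median level of the tested probe sets. Of their defining markers, Ttr, transthyretin, was 11.01, 11.46 and 11.45 in Sirt1 inactive and 10.60, 11.19 and 9.08 in control. Kcnj13 was 7.81, 8.06 and 7.98 in Sirt1 inactive and 7.54, 8.07 and 7.07 in control. Astrocyte markers were lowest on control replicate 3 for 5 of 7, with summed levels of 13.85 to 14.04 in Sirt1 inactive and 13.25 to 13.91 in control; the astrocyte filament gene Gfap was 7.41 on that array and 9.55 to 10.25 on the others. For fibroblast, meningeal and mural cell markers the count was 7 of 11, with 12.2 to 12.5 in Sirt1 inactive and 11.4 to 12.5 in control. Of their defining markers, Lum was at 5.36 or less on every array, below the lower quartile, while Dcn and Pdgfrb were lowest on control replicate 3, at 6.87 and 7.95. The part of these cell types in the IGF values was not tested.

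Neuroblast and neuron markers had summed levels of 11.3 to 11.5 in Sirt1 inactive and 11.6 to 11.9 in control, which did not overlap. Gap43, with means of 10.63 in Sirt1 inactive and 10.94 in control, adds most of the intensity to these sums. Of the 7 markers, 2 lay above the median level of the tested probe sets. Taken singly, 2 of the 7 had groups without overlap, against 9.33% of all tested probe sets. All 7 differences were below 0, against 61% of all genes, with a median of -0.31. Of the 7, 3 had an unadjusted p under 0.05 in limma, against 3.61% of all tested probe sets, and 0 passed after adjustment. Control replicate 3 was highest for 6 of the 7, against 37.2% of all tested probe sets. Of their defining markers, Dcx, doublecortin, was 6.95, 7.05 and 7.10 in Sirt1 inactive and 7.15, 7.25 and 7.64 in control. Rbfox3 was 7.11, 6.98 and 7.20 in Sirt1 inactive and 7.20, 7.15 and 7.32 in control. Its groups overlapped, with a difference of -0.12.

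Oligodendrocyte progenitor markers had summed levels of 13.52, 13.38 and 13.52 in Sirt1 inactive and 13.47, 13.48 and 13.63 in control, which overlapped. Olig1 and Olig2 add most of the intensity to these sums. The median of the 6 marker differences was 0.11. Pdgfra, the growth factor receptor that defines these cells, was 9.33, 8.85 and 8.84 in Sirt1 inactive and 8.80, 8.36 and 7.48 in control. Pdgfra, Gpr17 and Sox10 were higher in Sirt1 inactive with no overlap, by 0.79, 0.75 and 0.28 (limma, unadjusted p = 0.042, 0.0027 and 0.032; adjusted p = 0.959 for each). Control replicate 3 was lowest for all 3 of them. Over all tested probe sets, 9.33% had no overlap and 3.61% had an unadjusted p under 0.05 in limma. The other 3 of the 6 markers, Cspg4, Olig1 and Olig2, lay below 0, at -0.12, -0.07 and -0.15, and their groups overlapped.

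Microglia and macrophages are a known source of Igf1 in brain. The log2 of the summed intensity of their markers was 10.339 to 10.389 in Sirt1 inactive and 10.389 to 10.447 in control. Of the 9 differences, 8 were below 0, against 61% of all genes. Groups did not overlap for 5 of the 9, against 9.33% of all tested probe sets. These markers were mostly dim: 2 of the 9 lay above the median level of the tested probe sets and 3 below the lower quartile. Dim probe sets leaned below 0 as a class. The median difference was -0.022 over all tested probe sets and -0.003 without those under the median level. The shares above are over all levels, so they are not a matched comparison for dim markers. Of their defining markers, Tmem119 was 6.92, 6.90 and 7.004 in Sirt1 inactive and 7.15, 7.08 and 7.17 in control (difference -0.19; limma, unadjusted p = 0.016, adjusted p = 0.959), and Cx3cr1 overlapped, at 7.60 to 7.74 in Sirt1 inactive and 7.67 to 7.76 in control. Endothelial markers had summed levels of 9.57 to 9.71 in Sirt1 inactive and 9.66 to 9.76 in control. As single markers, 0 of 7 lay above the median level of the tested probe sets. Myelinating oligodendrocyte markers had summed levels of 12.5 to 12.7 in Sirt1 inactive and 12.5 to 12.8 in control. Ependymal markers had summed levels of 9.91 to 10.07 in Sirt1 inactive and 9.86 to 10.13 in control. Neural stem cell and progenitor markers summed to 15.2 on every Sirt1 inactive array and to 15.1 to 15.2 in control, and control replicate 3 was lowest for 5 of the 9. The part of these cell types in the IGF values was not tested either.

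**Figure D3:**
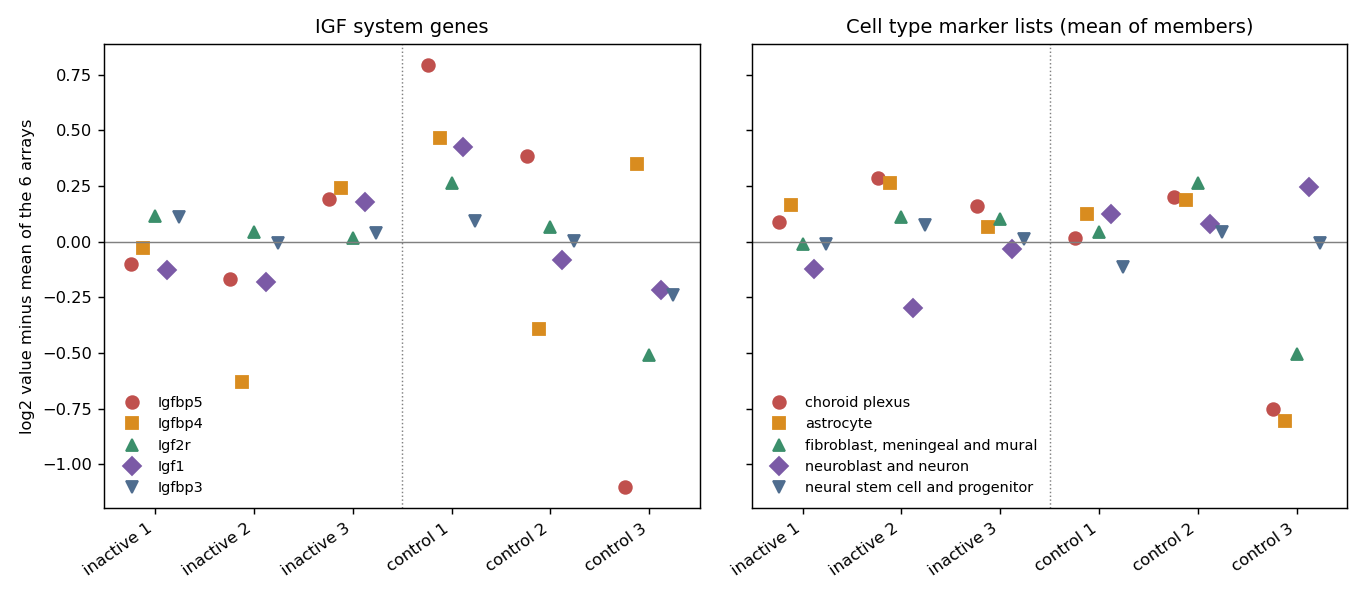
Deviation of each array from the mean of the 6 arrays (log2, vertical axis) for 5 IGF genes at left and for the mean of 5 cell type marker lists at right, Sirt1 inactive arrays first. On control replicate 3, Igfbp5 and Igf2r lie lowest among the genes at left, and the choroid plexus, astrocyte and fibroblast, meningeal and mural lists lie below 0 at right.

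Further genes of the pathway were grouped into 8 lists, and 0 of their measured members passed in either direction. Beyond the 10 genes, binding proteins had 1 of 5 members above 0 and a median difference of -0.10. Igfbp7, which binds IGFs weakly, was 10.81, 11.04 and 11.20 in Sirt1 inactive and 10.84, 11.32 and 9.84 in control. Like Igfbp5 it was lowest on control replicate 3; its difference was 0.35 (SE 0.34), and -0.07 without that array. Igfbpl1 differed by -0.14 and Igfbp6 by -0.11, and without control replicate 3 by -0.071 and -0.031. Proteases and inhibitors that act on binding proteins split evenly, with 3 of 6 above 0 and a median of -0.01; Pappa, which encodes the protease that cleaves IGFBP4, differed by -0.11, Htra1 by 0.07 and Stc1, a PAPP-A inhibitor, by -0.06. These were -0.033, -0.035 and -0.094 without control replicate 3. Insulin and its receptors had 3 of 4 genes measured, all below 0: Insrr at -0.07, Ins2 at -0.07 and the insulin receptor Insr at -0.06. Ins2 was at 0.017 and Insr at -0.020 without control replicate 3. A second, dimmer Insr probe set (10576696) was at 0.03 over all 6 arrays. Insrr, Ins2, Igfbp6 and Pappa had mean levels of 6.80, 6.83, 6.83 and 6.71, below the median level of the tested probe sets. After a renewed quantile normalization their differences were -0.028, -0.029, -0.068 and -0.072. Of the genes of the Igf2 locus and of Igf2 mRNA binding 2 of 5 were measured, Igf2bp3 at 0.22 and Igf2bp1 at 0.05, and without control replicate 3 at 0.19 and 0.10. The renewed normalization moved Igf2bp3 and Igf2bp1 away from 0, to 0.27 and 0.094.

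Receptor adaptors lay mostly below 0, with 14 of 17 and a median of -0.07. Grb10, an imprinted adaptor that binds the insulin and IGF1 receptors and dampens their signal, was 8.09, 8.14 and 8.21 in Sirt1 inactive, against 8.77, 8.43 and 8.27 in control. The groups did not overlap, the largest gap being in the cultures of number 1. The difference was -0.35 (SE 0.12; limma, unadjusted p = 0.026, adjusted p = 0.959), and -0.21 without control replicate 1. Shc3 and Sos2, which link receptors to RAS, differed by -0.15 and -0.13, and without control replicate 3 by -0.17 and -0.079. In all, 3 of the 17 had groups without overlap, against 9.33% of all tested probe sets, and 9 were lower in 3 of 3 pairs, against 20.7%.

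Downstream, 11 of 15 measured PI3K and AKT genes were below 0, with a median of -0.04. Pik3cg, a catalytic PI3K subunit of immune cells, differed by -0.18 (SE 0.07; limma, unadjusted p = 0.032, adjusted p = 0.959), the regulatory subunit Pik3r1 by -0.11 (-0.074 without control replicate 3) and Pik3cd by -0.09. Pik3cg and Pik3cd had mean levels of 6.55 and 7.43, below the median level of the tested probe sets. After a renewed quantile normalization they differed by -0.14 and -0.046. For the mTOR complexes 10 of 15 were below 0, with a median of -0.04. Eif4e, the cap-binding translation factor, was at 0.10, and its dimmer probe sets were at 0.11 and -0.12. The Eif4e inhibitor Eif4ebp2 was at -0.14 (-0.053 without control replicate 3). Deptor, an mTOR inhibitor, was at -0.35, with 7.88 to 8.19 in Sirt1 inactive against 9.14, 8.12 and 7.91 in control. Deptor was at -0.59 without control replicate 3 and at 0.030 without control replicate 1. Among FOXO factors and targets 11 of 15 were below 0, with a median of -0.05, and Trp53inp1, Foxo6 and Sesn1 differed by -0.14, -0.13 and -0.16. These medians stand beside -0.02 over all genes, and the shares below 0 beside 61% of all genes. Without control replicate 3 the median was -0.039 for receptor adaptors, -0.028 for PI3K and AKT, 0.011 for the mTOR complexes and -0.096 for FOXO factors and targets, against -0.0071 over all tested probe sets.

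**Figure D4:**
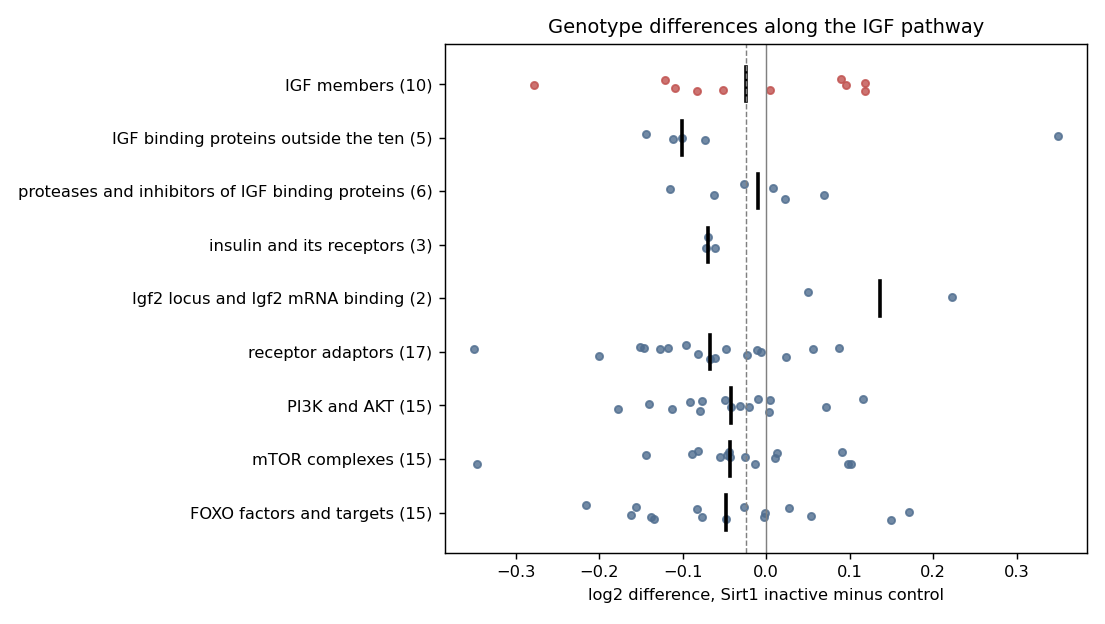
Log2 difference, Sirt1 inactive minus control (horizontal axis), of each measured gene of the IGF system and of 8 pathway lists, with the number measured in brackets; short bars are list medians and the dashed line is the median of all genes. All list medians lie between -0.10 and 0.14, and 0 genes shown passed the test.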

How the data were processed

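RNA of 6 cultures was hybridised to 1-colour Affymetrix arrays that cover whole transcripts, with an array for each sample. The authors deposited log2 values made with RMA, according to the design text and per the submitters' processing notes; the log2 scale was read from the values (3.02 to 13.6). RMA equalises array-wide brightness and compresses dim signals, so a fold change can understate a change in RNA. The version of RMA and the annotation's build are not stated there. The table held 0 columns of other samples. GEO's platform annotation pairs 21640 probe sets with 1 gene; the 22961 with at least 1 were tested, and 21553 of the single-gene probe sets were found in RefSeq by Entrez identifier.

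Differences are Sirt1 inactive minus control, fitted over 6 arrays with limma 3.58.1 in R 4.3.3 with genotype as the term. The p-values are two-sided, with Benjamini-Hochberg adjustment over all tested probe sets. A gene is read from its probe set with the highest mean. Arrays have no read depth, and their number limits the precision: the median SE was 0.080. The fit was tested on simulated data with noise drawn independently for each array. Its pass mark covered only changes far larger than those of the IGF genes. It therefore does not show that differences of the size reported here would be found. Members, lists and alternatives were chosen with earlier results of these data known. The rule for named genes took the 10 members, Sirt1, up to 3 genes per pathway list with the smallest unadjusted p, and defining cell type markers. Levels of different probe sets were not compared.

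The replicate numbers come from the titles. Same-numbered cultures deviated together from their group means (r = 0.47, 0.36 and 0.27 across probe sets for numbers 1, 2 and 3), so a fit with the replicate number as a block was an alternative. Others were array medians subtracted, a renewed quantile normalization, dim probe sets left out, array weights, an intensity trend with a robust prior, averaged probe sets per gene, each array left out, and the block without number 3.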

Additional observations from a re-analysis of the deposited data

How the results depend on the processing

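No IGF gene passed at an adjusted p of 0.05 in limma under any alternative run. Over all probe sets 0 passed as well, with an exception: with the replicate block and numbers 1 and 2 alone, 19 passed, 0 of them IGF genes. The count at an unadjusted p under 0.05, 830 as reported, was 1741 with the replicate block, 1972 with the block and without number 3, 312 without probe sets under the median level (a setting that tests fewer probe sets and leaves out Igf1 and Igf2), and 456 to 1453 with 1 array left out, lowest without Sirt1 inactive replicate 2 and highest without control replicate 1. The replicate block changed no call at the adjusted threshold.

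Directions were less stable. With array weights Igf1 was 0.017, Igfbp4 0.11 and Htra1 -0.00012. With the block and without number 3, Igf2 was -0.074, Igf2r -0.086, Irs2 -0.047, Igfbp7 -0.16, Htra1 -0.031, Ins2 0.025 and Insr 0.012. With 1 array left out, these ranges crossed 0: Igf1 -0.21 to 0.11, Igf2r -0.11 to 0.28, Igfbp3 -0.00080 to 0.17, Igfbp5 -0.62 to 0.33, Irs2 -0.040 to 0.066, Igfbp7 -0.065 to 0.68, Htra1 -0.035 to 0.12, Stc1 -0.12 to 0.047, Ins2 -0.14 to 0.017, Insr -0.20 to 0.035 and Deptor -0.59 to 0.030. The cause of these turns was not tested. Igf2, Igf1r, Igfbp2, Igfbp4 and Irs1 kept their sign with any 1 array left out, at 0.000078 to 0.16, -0.21 to -0.033, 0.043 to 0.17, -0.55 to -0.034 and -0.24 to -0.035. With 1 array left out, the list medians ran from -0.071 to 0.11 for the 10 genes, -0.034 to 0.038 for the proteases and inhibitors, -0.14 to -0.020 for insulin and its receptors and -0.055 to 0.011 for the mTOR complexes. With 3 arrays per group, the interval of Igfbp5 leaves changes between about -1.09 and 0.99 unresolved.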
